A study of Mus musculus with 8 samples.

Results

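Olfactory receptor genes with a detectable signal were examined in mouse morulae depleted of P150. Array probes were joined through their RefSeq accessions to gene symbols beginning with Olfr and a digit, and members were chosen by the scanner's background call alone: 3 or more of the 8 arrays, of either group, had to show the probe well above background. This left 135 probes for 133 genes, 11.6% of the 1160 olfactory receptor probes on the array, against 54.5% of all 55681 probes. The array carried a probe for 1071 of the 1428 olfactory receptor genes of the RefSeq table. The P150KD group held 5 arrays of embryos that received P150 siRNA at the 1-cell stage, and the siControl group held 3 arrays of embryos that received control siRNA in the same way. All embryos came from in vitro fertilization, were cultured in KSOM and were collected as morulae at embryonic day 3.0, with the RNA of 10 embryos on each array. The labels give no mouse strain and do not say whether the arrays of a group came from separate collections, so p-values measure the spread between these arrays.

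Olfactory receptors are the largest family of G protein-coupled receptors in the mouse genome, and nearly all of their genes lie in clusters of related copies. A mature olfactory neuron expresses a single receptor allele while the remaining receptor genes are held in heterochromatin that carries the trimethyl marks of H3K9 and H4K20. Receptor binding of an odorant activates the G protein alpha subunit Golf (Gnal) and adenylyl cyclase 3 (Adcy3), and cyclic AMP then opens the channel formed by Cnga2, Cnga4 and Cngb1. P150, encoded by Chaf1a, is the large subunit of CAF-1, the histone chaperone that deposits H3 and H4 on newly replicated DNA.

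Chaf1a had levels of -1.47, 0.52, -0.48, -1.45 and -0.23 in P150KD replicates 1 to 5, against 2.40, 2.09 and 2.27 in siControl replicates 1 to 3. A level is the log2 processed signal minus the 75th percentile of its array. Chaf1a fell by 2.88 on the log2 scale (SE 0.48; limma adjusted p = 0.0107), and no P150KD array reached a siControl array. The arrays read pooled embryos, so fewer cells with a transcript and less transcript per cell cannot be told apart. All 8 arrays lay on 1 slide with 1 scan date, and no spot was saturated. The 3 siControl arrays and P150KD replicate 1 occupied column 1 of the slide and P150KD replicates 2 to 5 the other column. A fit blocked on slide column, in which P150KD replicate 1 alone is set against siControl, gave -3.72 for Chaf1a (limma adjusted p = 0.0509). Probes bind their targets with different strength, so levels were tested between arrays for 1 probe, and an order of probes by mean signal describes brightness, not transcript abundance.

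Of the 135 olfactory receptor probes, 26 rose in P150KD, 1 fell and 108 did not pass the threshold of 0.05 on limma's adjusted p, taken over all 30348 tested probes. The risen probes were 19.3% of the receptor probes, where 6.28% of all tested probes rose. Counted by gene, 26 of 133 rose (19.5%), where 6.65% of all genes did by their brightest probe. The probe that fell was 0.741% of the receptor probes, where 7.66% of all tested probes fell. These shares are descriptions, because a receptor probe seen above background in P150KD arrays only could enter the set through that group alone. In all 26 risen probes every P150KD array lay above every siControl array, which held for 30 receptor probes (22.2%) and for 9.36% of all tested probes. In 6 receptor probes (4.44%), against 17.7% of all tested probes, every P150KD array lay below every siControl array. At an unadjusted p under 0.05 the fit listed 49 receptor probes (36.3%), where it listed 30.4% of all tested probes.

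Among the 26 risen probes, 11 were above background on at least 1 siControl array and 15 on none. For the 15, a fold could be given only as a bound, from the P150KD mean and the lowest signal called above background on each siControl array, and it ran from at least 1.48-fold for Olfr73 to at least 21.9-fold for Olfr871. The fitted log2 fold changes of all 26 ran from 1.04 for Olfr338 to 6.54 for Olfr376. Their median was 4.13, or 3.12 with the 15 at their bounds, and 20 of 26 lay at 4-fold or more with those bounds. Olfr376 belongs to receptor family MOR135 and is the probe with the largest fitted change. Within slide column 1 their differences were 1.42 to 8.31 on the log2 scale, positive by necessity since no arrays overlapped. In the fit blocked on slide column, which sets P150KD replicate 1 alone against siControl, 11 of the 26 passed, and 10 of those 11 belong to a set of receptors in which that replicate was the highest P150KD array.

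**Figure D1:**
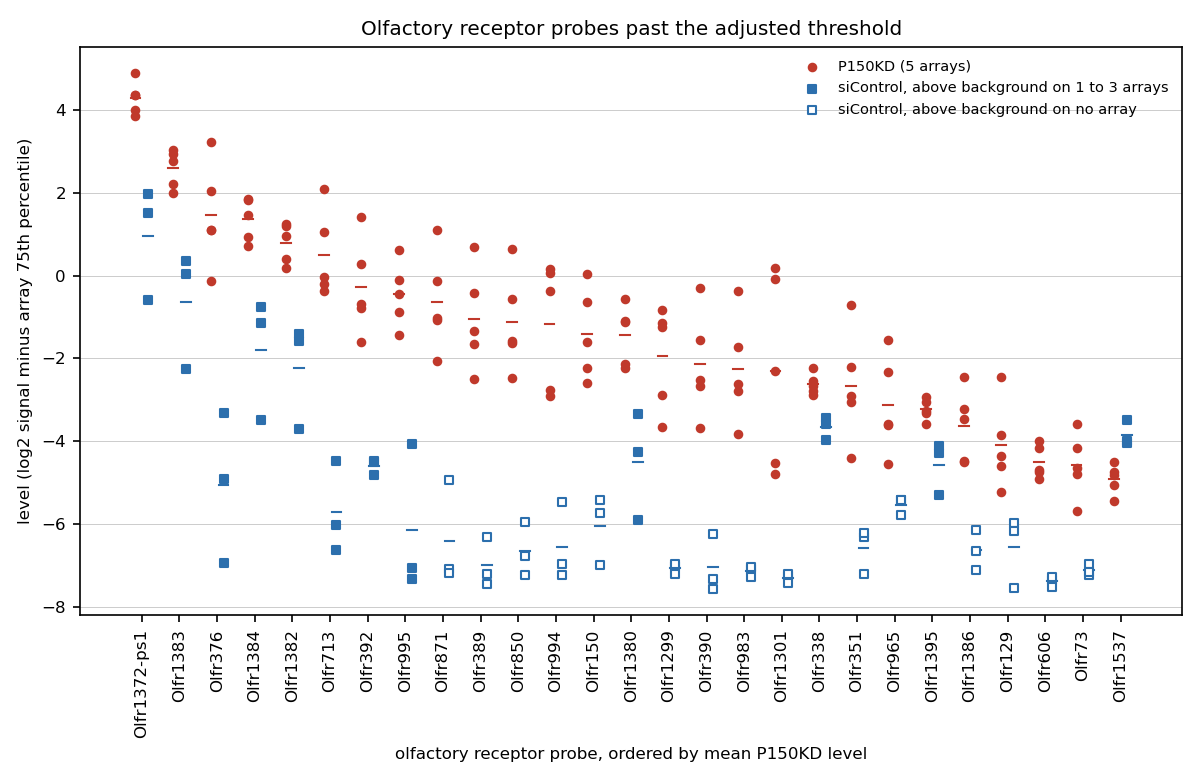
Levels (log2 signal minus the array's 75th percentile, vertical axis) of the 27 olfactory receptor probes past the adjusted threshold, with the 5 P150KD arrays as red circles left of the 3 siControl arrays as blue squares, a bar at each mean, and open squares where no siControl array was above background. The P150KD arrays lie above all siControl arrays in the 26 probes that rose and below them in Olfr1537, at the right.

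The 4 detected members of the chromosome 11 cluster that spans Olfr20 to Olfr412 all rose, and all are receptors of family MOR135. Olfr376 had levels of 3.24, 1.1, -0.12, 2.04 and 1.11 in P150KD replicates 1 to 5, against -3.33, -4.92 and -6.96 in siControl replicates 1 to 3, a log2 fold change of 6.54 (SE 0.97; limma adjusted p = 0.0074). Only 1 of the 3 siControl arrays was above background for it. Olfr392 had 1.41, -0.79, -1.60, 0.28 and -0.68 in P150KD, against -4.48, -4.51 and -4.82 in siControl, a log2 fold change of 4.33 (SE 0.63; adjusted p = 0.00723). Its siControl arrays lay close together while its P150KD arrays were spread widely. Olfr389 had 0.70, -1.66, -2.49, -0.43 and -1.34 in P150KD, against -6.32, -7.45 and -7.21 in siControl, where no array was above background, so it was at least 17.2-fold higher (adjusted p = 0.00398). Olfr390, the neighbour of Olfr389, had -0.29, -2.51, -3.68, -1.55 and -2.66 in P150KD, against -6.25, -7.57 and -7.33 in siControl, at least 8.04-fold higher (adjusted p = 0.00799). In all 4 receptors P150KD replicate 1 was the highest array and P150KD replicate 3 the lowest. The median log2 fold change of the 4 was 5.43, or 4.22 with bounds, and all 4 passed in the fit blocked on slide column. The array carried 34 probes for this cluster, and only these 4 were detected.

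The sequences before Olfr389 and Olfr392 are shown because these receptors of 1 cluster moved together and their upstream windows were the most alike among 20 risen receptors with a window in the RefSeq table (63.3% identical bases in a global alignment, where the median of 190 pairs was 45.1%). Olfr390, which lies between them and also rose, had a window that was 41.9% identical to that of Olfr389 and 40.8% to that of Olfr392. Each window holds 250 bases up to the RefSeq gene start, on the minus strand of GRCm38.p6, chr11:73780590-73780839 for Olfr389 and chr11:73816878-73817127 for Olfr392. Capitals mark the longest run the windows share, 57 bases, which no other promoter of the table holds on either strand.
Olfr389: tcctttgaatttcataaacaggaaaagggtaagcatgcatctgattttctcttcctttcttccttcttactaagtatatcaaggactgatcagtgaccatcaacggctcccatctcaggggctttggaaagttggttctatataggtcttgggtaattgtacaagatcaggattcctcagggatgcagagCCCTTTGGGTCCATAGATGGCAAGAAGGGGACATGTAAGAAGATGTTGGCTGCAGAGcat
Olfr392: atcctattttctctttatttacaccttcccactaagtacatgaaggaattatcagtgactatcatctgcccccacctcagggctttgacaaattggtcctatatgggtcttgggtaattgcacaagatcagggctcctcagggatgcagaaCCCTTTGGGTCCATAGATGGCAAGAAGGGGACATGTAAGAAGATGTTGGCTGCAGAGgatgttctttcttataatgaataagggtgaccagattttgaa
Both windows lay 5′ of RefSeq models whose first bases are not a start codon. Counted back from the model's start, the shared run spans positions -60 to -4 in Olfr389 and -99 to -43 in Olfr392. Whether the RefSeq start is the start used in morulae was not measured.

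A second chromosome 11 cluster, from Olfr1396 to Olfr1380, held 9 detected probes for 8 genes, of which 6 rose and none fell. Olfr1384, Olfr1383 and Olfr1382, neighbours of family MOR256, were above background on all 8 arrays. Olfr1383 had levels of 2.21, 2.76, 2.01, 2.94 and 3.03 in P150KD replicates 1 to 5, against -2.26, 0.03 and 0.34 in siControl replicates 1 to 3, a log2 fold change of 3.22 (SE 0.60; limma adjusted p = 0.0157). Olfr1384 had 0.94, 1.47, 0.71, 1.84 and 1.84 in P150KD, against -3.49, -1.16 and -0.76 in siControl, a log2 fold change of 3.16 (SE 0.64; adjusted p = 0.0193). Olfr1382 had 0.39, 0.95, 0.17, 1.19 and 1.26 in P150KD, against -3.70, -1.58 and -1.40 in siControl, a log2 fold change of 3.02 (SE 0.56; adjusted p = 0.0155). In these 3 receptors siControl replicate 1 was the lowest array of its group by more than 2 units, and every P150KD array was above all 3 siControl arrays. Olfr1380 lies at the end of the cluster and had -2.14, -0.56, -2.23, -1.12 and -1.10 in P150KD, against -5.91, -4.26 and -3.35 in siControl (log2 fold change 3.08, SE 0.64; adjusted p = 0.0212). Olfr1386 had -4.48, -2.45, -4.51, -3.48 and -3.22 in P150KD, against -7.13, -6.14 and -6.66 in siControl, where no array was above background, and was at least 2.87-fold higher (adjusted p = 0.0121). Olfr1395 of family MOR277 changed less, with a mean of -3.23 ± 0.25 in P150KD and -4.58 ± 0.64 in siControl (SD, n = 5 and 3; log2 fold change 1.34, SE 0.31; limma adjusted p = 0.029). None of these 6 passed in the fit blocked on slide column (adjusted p = 0.161 to 0.293), although each was higher in P150KD replicate 1 than in every siControl array.

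Olfr1382 carried a further detected probe with another pattern. That probe had levels of -4.14, -5.47, -4.55, -5.15 and -6.68 in P150KD, against -4.11, -4.38 and -3.52 in siControl, a log2 fold change of -1.19 (SE 0.56; limma adjusted p = 0.2). The probes of this gene thus differed in sign. Olfr456, the other gene with a pair of detected probes, had log2 fold changes of 0.06 and -0.22, neither past the threshold.

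The windows before 4 receptors of this cluster are shown because the 4 rose and lie at the same end of the cluster. Olfr1381, not analysed here, lies between Olfr1382 and Olfr1380. Olfr1386 also rose and has a window, but it was not among those compared to find the shared runs. The windows hold 250 bases up to the RefSeq start on the plus strand of GRCm38.p6 (chr11:49513368-49513617 for Olfr1384, chr11:49523475-49523724 for Olfr1383, chr11:49534937-49535186 for Olfr1382 and chr11:49563673-49563922 for Olfr1380). Capitals mark the longest run shared by all 4 windows in Olfr1384, by the remaining 3 windows in Olfr1383, and by Olfr1382 and Olfr1380 in those.
Olfr1384: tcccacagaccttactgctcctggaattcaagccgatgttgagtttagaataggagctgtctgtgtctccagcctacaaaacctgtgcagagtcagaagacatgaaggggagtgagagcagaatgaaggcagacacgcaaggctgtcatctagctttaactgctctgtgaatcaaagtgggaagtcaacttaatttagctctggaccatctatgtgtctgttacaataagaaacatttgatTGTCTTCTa
Olfr1383: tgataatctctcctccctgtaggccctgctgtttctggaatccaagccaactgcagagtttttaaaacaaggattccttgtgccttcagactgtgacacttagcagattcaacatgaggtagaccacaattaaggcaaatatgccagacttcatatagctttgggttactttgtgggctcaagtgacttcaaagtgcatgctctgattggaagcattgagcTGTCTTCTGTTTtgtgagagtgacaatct
Olfr1382: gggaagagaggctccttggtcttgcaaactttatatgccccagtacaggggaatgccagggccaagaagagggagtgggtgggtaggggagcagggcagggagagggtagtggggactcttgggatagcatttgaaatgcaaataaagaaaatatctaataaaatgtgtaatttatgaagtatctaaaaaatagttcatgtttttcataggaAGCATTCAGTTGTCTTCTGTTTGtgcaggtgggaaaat
Olfr1380: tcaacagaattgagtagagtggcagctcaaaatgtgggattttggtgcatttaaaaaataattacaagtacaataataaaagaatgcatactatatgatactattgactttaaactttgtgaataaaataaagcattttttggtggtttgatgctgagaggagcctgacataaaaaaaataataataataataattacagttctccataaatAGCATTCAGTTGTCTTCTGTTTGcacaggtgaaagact
The run TGTCTTCT is common to all 4 and was found in 4.12% of 946 olfactory receptor windows and 1.92% of 32526 windows of all genes, searched on both strands. The longer run TGTCTTCTGTTT was found in 8 windows of all genes, 5 of them before olfactory receptors (Olfr1371, Olfr1380, Olfr1381, Olfr1382 and Olfr1383). The 23-base run before Olfr1382 and Olfr1380 was found before no other gene. In Olfr1383, Olfr1382 and Olfr1380 the RefSeq model begins at the start codon, as in 72.4% of olfactory receptor windows, so these windows are the sequence 5′ of the coding region and may not be promoters.

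Letters of known motifs were counted in the windows of all detected receptors (111 windows) and of the risen ones (20 windows), on both strands. The core bound by homeodomain proteins, TAATTA, was in 15% of risen windows, 18% of detected ones, 17.9% of olfactory receptor windows and 4.84% of all windows. The TATA box core TATAAA was in 20% of risen windows, 31.5% of detected ones, 39.3% of olfactory receptor windows and 12.3% of all windows. The palindrome bound by EBF factors was in no risen and no detected window, and in 0.423% of olfactory receptor windows. The octamer core ATGCAAAT, the site of POU factors, was in 1 risen window, that of Olfr1382, and in 2.43% of olfactory receptor windows. The risen windows and the other olfactory receptor windows were not tested against each other.

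Between these clusters on chromosome 11, the transcribed pseudogene Olfr1372-ps1 had levels of 4.02, 4.90, 3.85, 4.36 and 4.37 in P150KD, against -0.58, 1.97 and 1.51 in siControl, a log2 fold change of 3.33 (SE 0.57; limma adjusted p = 0.0119). It carries a MOR256 name, as do Olfr1382, Olfr1383, Olfr1384 and Olfr1386, and again siControl replicate 1 was the lowest array. With Olfr1372-ps1, 11 of the 20 detected probes on chromosome 11 rose.

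**Figure D2:**
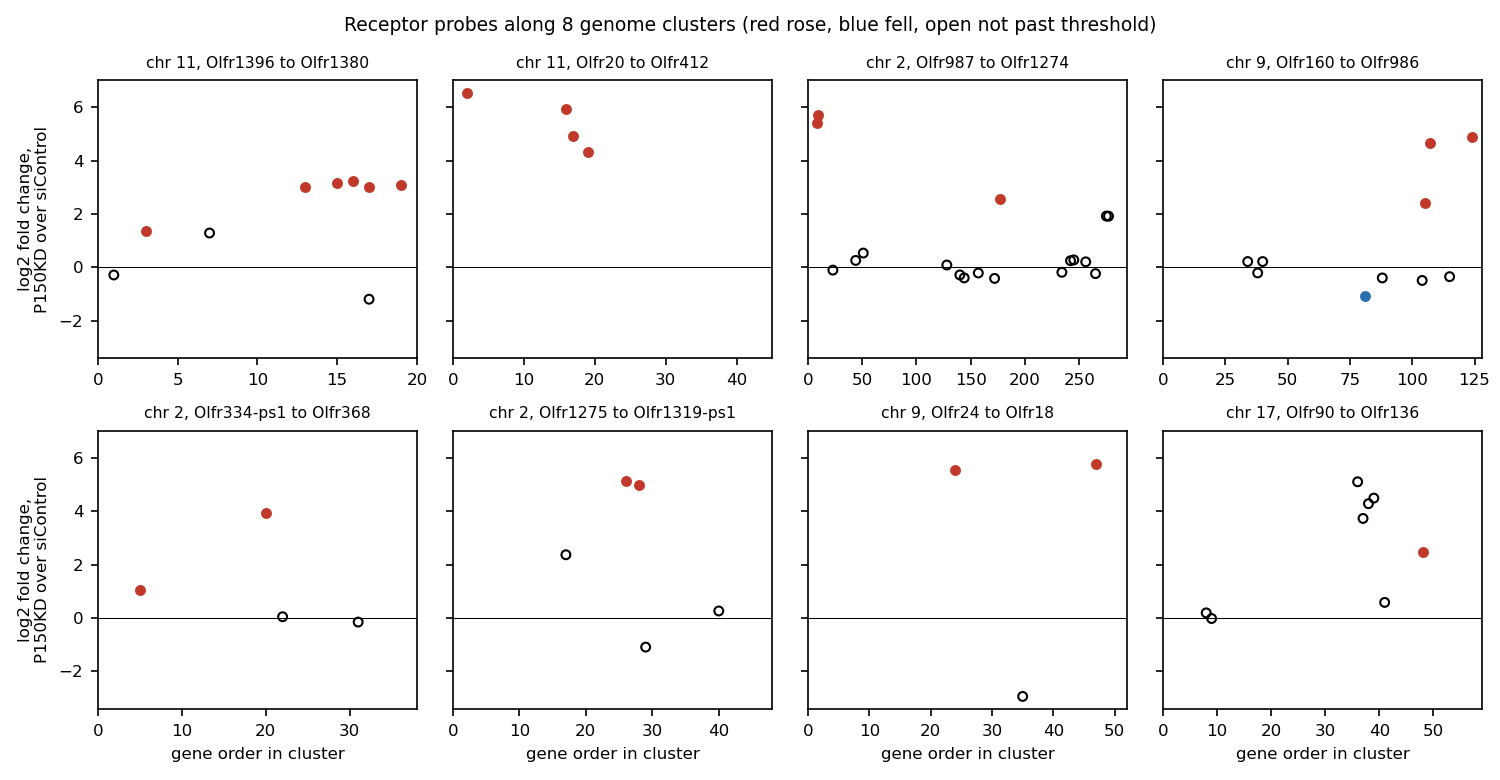
Log2 fold change of P150KD over siControl (vertical axis) of detected receptor probes against their gene order (horizontal axis) in 8 genome clusters, 1 panel each. The 8 were taken in order of their number of risen probes from the 15 clusters with at least 3 detected probes. Clusters without a risen probe are therefore not drawn. Nor are the chromosome 7 clusters from Olfr543 to Olfr692 and from Olfr693 to Olfr519, with 1 risen probe each. Red points rose, blue points fell and open points did not pass the threshold. The 4 detected probes of the cluster from Olfr20 to Olfr412 all lie above 4, and the open points of the chromosome 17 panel at 3.73 to 5.10 are Olfr118 to Olfr121.

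A run of 4 neighbouring chromosome 17 receptors, Olfr118 to Olfr121 of family MOR263, was high on 4 of the 5 P150KD arrays and at the siControl level on the other. Olfr118 had levels of 1.57, -7.01, 0.26, 0.42 and -0.25 in P150KD replicates 1 to 5, against -7.06, -5.64 and -5.61 in siControl, and did not pass (limma adjusted p = 0.11). Olfr121 had 1.17, -5.46, 0.56, 0.56 and -0.18 in P150KD, against -5.53, -5.00 and -4.94 in siControl (adjusted p = 0.0824). Olfr120 had -0.55, -5.98, 0.01, -0.45 and -1.73 in P150KD, against -5.88, -6.71 and -5.46 in siControl (adjusted p = 0.074). P150KD replicate 2 was the low array in each. Olfr119 had -2.34, -7.41, -3.16, -2.14 and -3.51 in P150KD, against -7.39, -7.58 and -7.34 in siControl (adjusted p = 0.0717). Without P150KD replicate 2, an array singled out because it is the low one, all 4 passed limma's threshold, with adjusted p of 0.00309 for Olfr118, 0.0042 for Olfr120, 0.00132 for Olfr121 and 0.00301 for Olfr119. With any other single array left out none of the 4 passed (adjusted p = 0.123 to 0.26). Olfr129, farther along the same cluster, was the only one of its 8 detected receptors to rise with all arrays in the fit (at least 2.07-fold; limma adjusted p = 0.0459). Chaf1a was reduced in P150KD replicate 2 too, at a level of 0.52, the highest of the 5 P150KD arrays.

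The same array was low for a chromosome 11 run of family MOR275 in the cluster from Olfr30 to Olfr225, which had 6 detected receptors and none past the threshold. Olfr328 had levels of -1.54, -6.06, -2.21, -2.30 and -2.77 in P150KD replicates 1 to 5, against -5.62, -5.72 and -6.05 in siControl (limma adjusted p = 0.093). Olfr331 had -2.33, -7.05, -3.97, -2.19 and -2.94 in P150KD, against -7.43, -7.23 and -7.00 in siControl (adjusted p = 0.0697). Olfr329 had -1.19, -5.15, -5.73, -3.15 and -3.05 in P150KD, against -7.04, -7.23 and -6.98 in siControl (adjusted p = 0.0575). In Olfr329 both replicates 2 and 3 of P150KD were low, yet all 5 P150KD arrays exceeded all siControl arrays. Without P150KD replicate 2, again singled out because it is the low array, the adjusted p from limma was 0.0036 for Olfr328 and 0.00551 for Olfr331. With any other array left out neither passed (0.11 to 0.217). Olfr329 did not pass without P150KD replicate 2 and passed without P150KD replicate 3, its own lowest array (adjusted p = 0.0374). Leaving out an array picked by the levels of the same probes is no test of them. Of the 23 tested genes of other families that lie inside this cluster, 4 rose and 1 fell. Over the array, 971 of all 14601 tested genes rose (6.65%) and 1527 fell by their brightest probe. Of 7 such genes inside the cluster from Olfr459 to Olfr47, none rose and 3 fell. Inside the cluster from Olfr543 to Olfr692, 2 of 11 rose, and inside that from Olfr693 to Olfr519, 2 of 7. Whether genes inside receptor clusters changed more often than others was not tested.

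On chromosome 2, 7 of 27 detected probes rose. Olfr995 and its neighbour Olfr994, both of family MOR203, had P150KD means of -0.45 ± 0.78 and -1.16 ± 1.54, against siControl means of -6.15 ± 1.81 and -6.56 ± 0.95 (SD, n = 5 and 3). Olfr995 was above background on 1 siControl array and had a log2 fold change of 5.70 (SE 0.81; limma adjusted p = 0.00669). Olfr994 was above background on no siControl array and was at least 15.8-fold higher (adjusted p = 0.0112). These neighbours sit near the start of the receptor cluster with the most genes in the RefSeq table, from Olfr987 to Olfr1274, where 3 of 18 detected receptors rose. The third was Olfr73, the receptor mOR-EG that responds to eugenol, with -4.66, -3.60, -5.68, -4.16 and -4.81 in P150KD, against -7.23, -6.97 and -7.17 in siControl (at least 1.48-fold; adjusted p = 0.0121). Olfr73 was above background on 4 of the 5 P150KD arrays.

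In the next chromosome 2 cluster, Olfr1299 and Olfr1301 of family MOR248 rose, out of 5 detected receptors. Olfr1299 had levels of -2.88, -1.23, -3.65, -1.14 and -0.84 in P150KD replicates 1 to 5, against -7.03, -7.22 and -6.98 in siControl, at least 9.19-fold higher (limma adjusted p = 0.00535). Olfr1301 had -2.32, -4.53, -4.80, -0.08 and 0.18 in P150KD, against -7.27, -7.43 and -7.20 in siControl, at least 7.15-fold higher (adjusted p = 0.0402). Olfr1301 was the less even of the pair, with P150KD replicates 4 and 5 far above replicates 2 and 3. Olfr1302 of the same cluster had a P150KD array far above its others and did not pass. Olfr351 (at least 5.61-fold; adjusted p = 0.0174) and Olfr338 rose in the cluster from Olfr334-ps1 to Olfr368. Olfr338 of family MOR136 was above background on all 8 arrays and had the smallest fitted change of the risen probes, -2.63 ± 0.25 in P150KD and -3.67 ± 0.28 in siControl (SD, n = 5 and 3; log2 fold change 1.04, SE 0.22; limma adjusted p = 0.0216).

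Chromosome 9 held 5 risen probes and the only one that fell, out of 13. Olfr871 had levels of 1.1, -1.07, -2.07, -0.14 and -1.03 in P150KD replicates 1 to 5, against -4.95, -7.09 and -7.20 in siControl, at least 21.9-fold higher (limma adjusted p = 0.00615). Olfr850, of the same cluster, was at least 16.3-fold higher (adjusted p = 0.00464), and no siControl array was above background for either. Olfr860, the remaining detected receptor of that cluster, had -6.42, -1.23, -5.54, -7.51 and -7.63 in P150KD, against -4.15, -3.30 and -0.72 in siControl, and did not pass (adjusted p = 0.244). Only 1 P150KD array was above background for Olfr860, while all 3 siControl arrays were. In the cluster from Olfr160 to Olfr986, Olfr150 was at least 13.4-fold, Olfr983 at least 7.36-fold and Olfr965 at least 4.06-fold higher (adjusted p = 0.00713, 0.00707 and 0.0474). The receptor that fell, Olfr1537 of family MOR171, had -4.74, -4.50, -4.82, -5.45 and -5.05 in P150KD, against -4.0, -4.05 and -3.48 in siControl, a log2 fold change of -1.07 (SE 0.26; limma adjusted p = 0.0361). It remained above background on 3 P150KD arrays.

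On chromosome 7, where class I receptors are encoded, 2 of 31 detected probes rose. Class I receptors, the families numbered up to MOR42, lie in a single large cluster and resemble the receptors of fish. Over all tested probes 6.28% rose and 7.66% fell. Of 15 detected class I probes 1 rose (6.67%), none fell and 3 had positive fold changes, with a median log2 fold change of -0.41. Of 115 class II probes 24 rose (20.9%), 1 fell and 67 had positive fold changes, with a median of 0.22. Both medians are positive when arrays are scaled to housekeeping genes (0.03 and 0.66), a scaling that moves every probe by 0.44. The class I receptor that rose was Olfr606, with -4.01, -4.71, -4.16, -4.75 and -4.91 in P150KD, against -7.35, -7.52 and -7.29 in siControl. Olfr606 was at least 1.56-fold higher (limma adjusted p = 0.00177), and its arrays were tight within each group. Olfr713, of the class II cluster on this chromosome, had 2.09, -0.20, -0.38, 1.05 and -0.02 in P150KD, against -4.47, -6.02 and -6.63 in siControl, a log2 fold change of 6.22 (SE 0.71; adjusted p = 0.00364). Class was not tested as a term, and 5 probes had no family name.

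In all, 65 receptor clusters were formed from genes at most 1 Mb apart. Detected probes lay in 32 of them and risen probes in 11. Of the 26 risen probes, 22 lay in the 7 clusters with at least 2 of them. That count follows in part from picking clusters by their risen probes, and whether risen probes gather in clusters was not tested. Of the 15 clusters with at least 3 detected probes, 10 held a risen one. Clusters without a risen probe included the 5 detected receptors from Olfr9 to Olfr827 on chromosome 10 (Olfr791, the largest change, with an adjusted p of 0.616) and the 6 probes from Olfr459 to Olfr47 on chromosome 6. On chromosome 6, Olfr437 had a mean of -6.53 ± 1.41 in P150KD and -3.46 ± 2.85 in siControl and did not pass (SD, n = 5 and 3; limma adjusted p = 0.165). None of the 5 detected receptors on chromosome 19 passed either.

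The receptor probes were dim as a group. By mean level, 89 of 135 lay in the dimmest of 4 equal bins of all tested probes, 34 in the next, 10 in the one after and 2 in the brightest. In those bins 11, 11, 3 and 1 receptor probes rose. The background of all tested probes that rose was 3.47%, 6.74%, 8.82% and 6.12% in the same order. The median log2 fold change of the receptor probes was 0.12, or 0.08 with bounds, against -0.20 for all tested probes. The receptor median was 0.0076 with normexp background correction and 0.56 with housekeeping scaling, and it was -0.02 without siControl replicate 1.

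**Figure D3:**
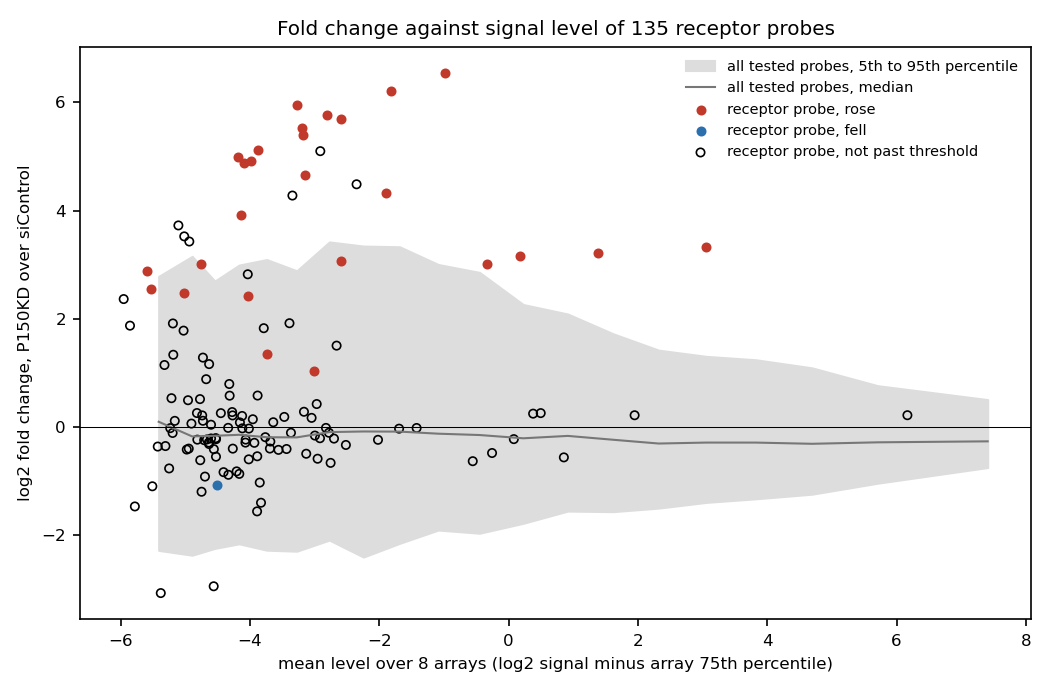
Log2 fold change of P150KD over siControl (vertical axis) against mean level over the 8 arrays (horizontal axis) of the 135 detected receptor probes, with the 5th to 95th percentile band and the median of all tested probes. Filled red points rose, the filled blue point fell and open points did not pass. Most receptor probes lie at levels under -2, and most of the risen ones lie above the band.

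Detection in siControl is not independent of the difference, so counts by it are descriptions. All 29 receptor probes seen on no siControl array had entered through P150KD arrays and had positive differences, and 15 of them rose, where 27.8% of all such probes rose. Of the 16 seen on 1 siControl array 3 rose, where 8.83% of all such probes did, and of the 17 seen on 2 arrays 3 rose, where 4.81% did. Of the 73 seen on all 3 siControl arrays 5 rose and 1 fell, where 5.44% rose and 9.62% fell. Restricted to probes above background on all 8 arrays, 5 of 52 receptor probes rose (9.62%, against 6.14% of all such probes) and none fell (against 9.97%). These 5 were Olfr338 and the related Olfr1372-ps1, Olfr1382, Olfr1383 and Olfr1384, which carry MOR256 names and lie on chromosome 11. The 52 had a median log2 fold change of -0.10, or 0.34 with the housekeeping scaling, so its sign rests on the scaling.

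Among the 8 receptor probes with the highest mean signal, 3 rose (Olfr1372-ps1, Olfr1383 and Olfr1384). Olfr1466 of family MOR202 had levels of 6.28, 6.29, 6.21, 6.40 and 6.07 in P150KD, against 6.0, 5.99 and 6.10 in siControl (log2 fold change 0.22, SE 0.15; limma adjusted p = 0.37). Olfr1368 of family MOR256 had 2.20, 1.65, 2.24, 2.04 and 2.02 in P150KD, against 1.65, 2.21 and 1.58 in siControl, and the groups overlapped (adjusted p = 0.551). The others had fold changes of 0.26 for Olfr212, 0.25 for Olfr1229 and -0.56 for Olfr224 on the log2 scale, none past the threshold.

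Several risen receptors varied over the P150KD arrays in almost the same way. Profiles were compared after subtracting each probe's P150KD mean, among the 23 risen receptor probes whose P150KD levels had an SD over 0.4. Of 253 pairs 44 (17.4%) lay within a root mean square distance of 0.25, as did 1.48% of pairs of all risen probes that varied as much. A set of 11 receptors from 5 clusters on 4 chromosomes and 7 MOR families was linked this way: Olfr376, Olfr389, Olfr390, Olfr392, Olfr713, Olfr850, Olfr871, Olfr150, Olfr983, Olfr965 and Olfr351. Their mean profile was 1.75, -0.48, -1.43, 0.56 and -0.41 around the P150KD mean in replicates 1 to 5. A further set was Olfr1382, Olfr1383 and Olfr1384, with distances of 0.032 to 0.076, and the remaining set was Olfr1380 with Olfr1386. Such profiles were not limited to receptors. For this, all 1906 other risen probes were compared, whatever their SD. Within that distance of Olfr376 (P150KD SD 1.25) lay 14 probes, 8 of receptors, 2 of other named genes and 4 unnamed. Olfr1383 varied less (P150KD SD 0.46), and 54 probes lay within the distance of it. Of these, 2 were of receptors, 18 unnamed and 34 of named genes of other kinds such as Ldha, H2bu2 and Sox15. These sets were chosen after the values were seen and have no test. Counting each set as its brightest probe leaves 13 risen receptor probes in place of 26. Probe sequences were not used here, so whether related receptors share the target of a probe was not tested.

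**Figure D4:**
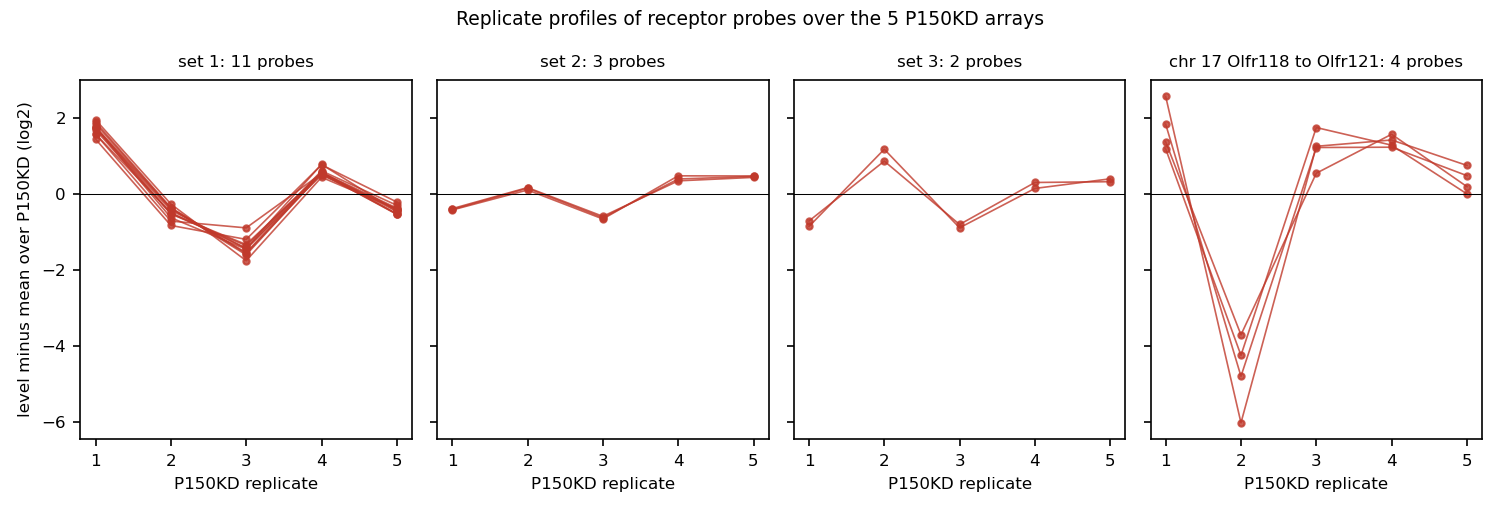
Levels of receptor probes over the 5 P150KD arrays (horizontal axis), each minus its own P150KD mean on the log2 scale (vertical axis), for the 3 sets with alike profiles and for Olfr118 to Olfr121. A line joins the arrays of 1 probe and the replicates have no order. The 11 probes of the largest set are highest in replicate 1 and low in replicate 3, and Olfr118 to Olfr121 are low in replicate 2.

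Over the 26 risen receptor probes, P150KD replicate 1 was the highest P150KD array in 14 and replicate 3 the lowest in 22. These arrays were highest and lowest in 34.9% and 29.4% of all 1907 risen probes. The 11 receptors of the largest alike-profile set are in both receptor counts, so the probes counted are not independent. The number of receptor probes above background was 160, 140, 121, 164 and 152 on P150KD replicates 1 to 5, against 124, 128 and 139 on siControl replicates 1 to 3. P150KD replicate 3 had the fewest of all 8 arrays, and the groups overlapped. Over all spots, 50.1% to 55.9% were above background on P150KD arrays, against 50.5% to 53.2% on siControl arrays.

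Of 19 listed genes of olfactory signalling, 14 were tested and none passed limma's adjusted threshold. Over the array, 17.1% of all tested genes passed it by their brightest probe. At an unadjusted limma p under 0.05 were 2 of the 14 (Gnb1 and Gnal), where 30.4% of all tested probes were. The median log2 fold change of the 14 was -0.22. Gnal, the receptor-coupled G protein subunit, averaged -0.40 ± 1.01 in P150KD and 1.17 ± 0.44 in siControl (SD, n = 5 and 3; limma adjusted p = 0.114). Cngb1, a channel subunit, averaged 1.17 ± 1.15 in P150KD and -2.33 ± 4.31 in siControl (adjusted p = 0.22), and its siControl arrays were far apart. Gnb1, a G protein beta subunit, had an adjusted p of 0.096, and Bbs4, of the ciliary BBSome, one of 0.179.

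Of 21 genes of receptor choice and receptor silencing, 18 were tested, with a median log2 fold change of 0.02. Among the 18, 1 rose and none fell, where 971 of all 14601 tested genes rose (6.65%) and 1527 fell by their brightest probe. The riser was Atf5, a transcription factor of the unfolded protein response that stabilizes receptor choice, with 4.88 ± 0.26 in P150KD and 2.99 ± 0.94 in siControl (SD, n = 5 and 3; log2 fold change 1.89, SE 0.40; limma adjusted p = 0.0231). Ebf1, a factor that binds receptor promoters in olfactory neurons, averaged -1.69 ± 0.26 in P150KD and -5.11 ± 2.58 in siControl and did not pass (adjusted p = 0.0596). Cbx5, which encodes heterochromatin protein 1 alpha, averaged -0.88 ± 0.44 in P150KD and 0.24 ± 0.71 in siControl (adjusted p = 0.0914). Ldb1, a cofactor of receptor enhancers, averaged 2.28 ± 0.82 in P150KD and 0.95 ± 0.25 in siControl (adjusted p = 0.0998).

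Other cell types were examined through markers. Over the array, 17.1% of all tested genes passed limma's adjusted threshold by their brightest probe. An unadjusted limma p under 0.05 was found for 30.4% of all tested probes. Of 16 olfactory neuron markers 10 were tested and none passed limma's adjusted threshold (1, Gnal, at an unadjusted p under 0.05), and 6 were above background on no array (Gap43, Gng8, Ncam2, Neurod1, Neurog1 and Rtp1). Omp, the olfactory marker protein, averaged -4.49 ± 1.86 in P150KD and -3.37 ± 0.91 in siControl (SD, n = 5 and 3; limma adjusted p = 0.515). The summed level of the tested neuron markers ran from 0.04 to 2.19 in P150KD, against 1.57 to 1.92 in siControl. Of 16 sperm markers, of interest because testis expresses some olfactory receptors, 8 were tested and none passed (2 at an unadjusted p under 0.05, Smcp and Gapdhs), and 7 of the 8 had positive differences, with a median log2 fold change of 1.00, or 0.89 with bounds. Their summed level, carried mostly by Odf2, the 1 marker with a negative difference, was 2.36 to 3.4 in P150KD, against 3.02 to 3.51 in siControl. Of 15 cumulus cell markers 4 were tested and none passed, 1 of them with an unadjusted p under 0.05 (summed levels 3.0 to 3.99 in P150KD, against 2.76 to 2.96 in siControl), and 8 were above background on no array. All 15 morula markers were tested, and 4 fell (Krt18, Tead4, Zfp42 and Gata3), where 1527 of all 14601 tested genes fell by their brightest probe. The summed levels of the morula markers were 9.31 to 9.76 in P150KD, against 10.01 to 10.13 in siControl, with a median log2 fold change of -0.62. The 26 housekeeping genes shifted in the same direction, with 7 fallen, 1 risen and a median of -0.40. Their summed levels were 11.29 to 11.58 in P150KD, against 11.70 to 11.88 in siControl. The part of these cell types in the receptor differences was not tested.

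The detection rule drew its line among dim probes. On exactly 3 arrays lay 17 receptor probes, with mean levels of -5.95 to -4.67 and group differences of -3.07 to 3.43. Those with the highest mean signal were Olfr1339 and Olfr524, neither past the threshold. Just outside it, 49 receptor probes were above background on 2 arrays, with mean levels of -6.59 to -4.90 and group differences of -3.88 to 2.18, Olfr1509 and Olfr1441 having the highest mean signal. A further 219 were above background on 1 array and 757 on none.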

How the data were processed

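RNA of 10 morulae per array was amplified in a pair of rounds, labelled with Cy3 and hybridised to 1-colour Agilent mouse arrays (5 P150KD, 3 siControl), per the labels' protocols. Scanning used Agilent Feature Extraction 10.5.1, per the submitters' processing notes. The deposited scanner files hold spot intensity: the processed signal is background-subtracted and not normalised between arrays, and 0 or 1 flags mark spots well above background, per the file headers. The array design was built on mm9 and the RefSeq tables on GRCm38.p6, so no probe position is printed. The authors' deposited series table was compared with the scanner files and holds log2 values centred on each probe's median (lowest correlation of array differences 0.99999), with column medians of -0.215 to 0.0914 in P150KD and -0.107 to 0.0807 in siControl.

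Here, spots of a probe were averaged, log2 values minus each array's 75th percentile were taken, and probes above background on at least 3 of 8 arrays (30348 of 55681) were fitted with limma 3.58.1 (lmFit, eBayes) in R 4.3.3, with Benjamini-Hochberg adjustment over all of them and a threshold of 0.05. Control spots were left out. Outlier spots were left out where the probe had an unflagged spot, and kept where all its spots were flagged. Probes were named by unversioned accession. The number of arrays limits the precision. Where no siControl array was above background, folds are lower bounds, against the higher of the array's lowest well-above-background signal and the probe's own. The sign of a value is P150KD minus siControl.

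Named receptors are those past the threshold, the 8 with the highest mean signal, the 6 largest changes in each direction not past it, up to 3 examples per cluster, and those next to the detection limit. Members and gene lists were chosen with earlier results of these data known. The alike-profile sets, neighbouring genes, printed windows, runs and motifs were chosen after their values were seen. Same-numbered arrays of the groups did not deviate together (correlations -0.014, -0.074 and -0.017), so the main fit has no replicate block. The statistics were tested on simulated data. Tables and figures used Python 3.11.15, pandas 2.3.3, numpy 2.4.6 and matplotlib 3.10.9, and the robust alternative used statmod 1.5.0. The normexp alternative started from the median spot and background intensities with an offset of 50, and kept outlier spots.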

Additional observations from a re-analysis of the deposited data

Results flagged for a closer look

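In 14 of the 135 detected receptor probes, 1 P150KD array lay apart from the other 4 by Dixon's test at the 95% level. Chance alone gives about 5% of groups, or 6.75 of 135, and probes of neighbouring receptors are not independent. None of the 14 passed the threshold in the comparison of P150KD with siControl. The array apart was replicate 2 in 7 of the probes, replicate 5 in 4, replicate 4 in 2 and replicate 3 in 1. The siControl group of 3 was not examined in this way.

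P150KD replicate 2 was low for 3 neighbouring chromosome 17 receptors. Olfr118 had a level of -7.01 there, with the other P150KD arrays at -0.25 to 1.57. Olfr119 had -7.41, with the others at -3.51 to -2.14. Olfr121 had -5.46, with the others at -0.18 to 1.17. The same array was low for Olfr328 on chromosome 11, at -6.06 with the others at -2.77 to -1.54, and for its neighbour Olfr330, at -7.26 with the others at -3.01 to -1.43. It was low for Olfr213, at -6.14 with the others at -4.26 to -3.67. It was high for Olfr1302, at -3.15 with the others at -7.07 to -6.17.

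P150KD replicate 5 was high for Olfr1341, at -1.12 with the others at -5.22 to -4.31. It was also high for Olfr270, at -3.14 with the others at -7.31 to -6.90, and for Olfr524, at -0.88 with the others at -5.88 to -5.43. It was low for Olfr670, at -7.41 with the others at -4.79 to -3.99. P150KD replicate 4 was high for Olfr437, at -4.03 with the others at -7.43 to -6.90, and for Olfr549, at -0.37 with the others at -3.63 to -3.22. P150KD replicate 3 was high for Olfr901, at -3.31 with the others at -5.24 to -4.72.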

How the results depend on the processing

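The count of receptor probes past the threshold (26 higher and 1 lower in P150KD, 27 genes) was 17 with normexp background correction (17 higher, 0 lower, 17 genes) and 12 in the fit blocked on slide column (12 higher, 0 lower, 12 genes). Restricted to probes above background on all 8 arrays it was 5 (5 higher, 0 lower, 5 genes), from fewer probes, and the median difference was -0.10. The lower count was also 0 with quantile normalization, with scaling to the median, with housekeeping scaling and with trend and robust eBayes. It was 6 with no filter, 3 with detection on at least 2 arrays and 2 with array weights. Leaving out 1 array gave 18 to 34 probes or genes past the threshold, 17 to 32 of the probes higher (17 without siControl replicate 1) and 0 to 2 lower, and a median difference of -0.02 to 0.19. Over the whole array (4231 probes, 1907 higher and 2324 lower), leaving out 1 array gave 1706 to 3749, 1016 to 1770 higher and 690 to 1979 lower. The whole-array count in the fit blocked on slide column was 713, of which 442 higher and 271 lower. The lower count over the array was 1487 with quantile normalization and 1512 with scaling to the median. Housekeeping scaling, which adds 0.44 to every log2 fold change, gave 3017 higher and 608 lower over the array and a receptor median of 0.56.

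With the replicate number as a block, in which P150KD replicates 4 and 5 have no partner, 0 probes passed over the array (0 higher, 0 lower), 0 receptor probes (0 higher, 0 lower) and 0 receptor genes. The numbers are not shown to pair the arrays. Chosen after seeing the data, leaving out the receptors with alike profiles gave 11 past the threshold (10 higher), and counting each set once gave 14 (13 higher).

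Of the 27 called receptors, 9 kept their call in all but the replicate block of the 20 settings run for them, which leave out detection on all 8 arrays, and all 9 belong to the set of 11 with alike profiles. Those that lost it most often were Olfr1537 in 15 settings, Olfr965 in 14 and Olfr129 in 13. Direction turned only in receptors that did not pass. Olfr362 (-0.16) was 0.28 with housekeeping scaling, 0.21 with the replicate block, 0.44 in the fit blocked on slide column, 0.044 with array weights, and -0.35 to 0.14 with 1 array left out. Olfr538 (-0.24) was 0.20 and Olfr522 (-0.21) was 0.23 with housekeeping scaling, and Olfr538 was -0.44 to 0.0090 with 1 array left out. In the fit blocked on slide column, Olfr791 (1.15) was -1.12 and Olfr477 (0.52) was -0.25. The cause was not tested. No olfactory receptor probe had an ambiguous accession, so that alternative gave no value.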

Other observations

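Other chemosensory receptor families were also detected in part. Of 252 vomeronasal receptor genes on the array 47 were tested, of which 5 rose and 2 fell, where 971 of all 14601 tested genes rose (6.65%) and 1527 fell by their brightest probe, with a median log2 fold change of 0.25. Vmn1r132 was at least 14.1-fold higher in P150KD (limma adjusted p = 0.0217), and Vmn1r139 at least 6.26-fold (adjusted p = 0.00708). Vmn1r219 rose by 2.01 on the log2 scale (adjusted p = 0.0151). Of the pair that fell, Vmn1r82 had a log2 fold change of -1.5 (adjusted p = 0.0356). Of 38 taste receptor genes 7 were tested and 2 rose, with a median of 0.05. Tas2r109, a bitter receptor, had a mean of 3.81 in P150KD and 1.93 in siControl (log2 fold change 1.87, limma adjusted p = 0.00728), and Tas2r113 had a log2 fold change of 0.80 (adjusted p = 0.0279). Of the trace amine-associated receptors only Taar7d was tested, and it did not pass (adjusted p = 0.583), while 8 of 14 on the array were above background on none.

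Genes of other families next to the receptor clusters were read from the same fit, and were looked up after the receptor values were seen. Inside the chromosome 11 cluster from Olfr1396 to Olfr1380, Mgat1, an enzyme of N-glycan synthesis, fell by 2.11 on the log2 scale (limma adjusted p = 0.0206), and Zfp62 did not pass (adjusted p = 0.0516). None of the 4 tested genes flanking that cluster passed, and none of the 4 flanking the cluster from Olfr20 to Olfr412. Inside the cluster from Olfr30 to Olfr225 the histone genes H2bu2 and H2aw had log2 fold changes of 4.14 and 2.21 and rose, as did Trim11, while the signalling ligand Wnt3a fell by 2.83.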
